A study of Mus musculus with 14 samples.

Results

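The genes examined were 50 lineage transcription factors, chosen by name out of 22350 protein-coding genes of the mm9 annotation (GENCODE vM1, build NCBIM37, chromosomes 1 to 19 and X), and all 50 were found in it. They fall into 7 families, namely 8 Pax genes, 8 LIM homeobox genes, 5 Gata genes, 9 T-box genes, 7 forkhead genes, 7 proneural bHLH genes and 6 mesodermal bHLH genes. The rule that chose them names gene families and uses no measured value, though earlier results of these data were known when the list was made. A gene was counted as having a peak where the centre of at least 1 peak lay inside its body or within 50 kb of either end. The counts were divided by the length of these windows and set beside the same count for all protein-coding genes.

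The study asked where SIM2, a bHLH-PAS transcription factor encoded on human chromosome 21, binds in mouse embryonic stem (mES) cells. SIM2 was mapped by ChIP-seq with the anti-FLAG M2 antibody in 3 clones, A6, B8 and C4. Each clone carries a FLAG-tagged Sim2 transgene in the ROSA-TET system, which is expressed once tetracycline is withdrawn, and the EB3 parental line without the transgene served as the control for the antibody. NANOG, OCT4 and the Mediator subunits MED1 and MED12 were mapped in clone A6. All of these cells were kept for 26 h in medium without tetracycline, so every NANOG, OCT4 and Mediator list used here comes from cells that overexpress Sim2, and the effect of SIM2 on that binding cannot be told apart from binding that ES cells have without it. Each line is represented by 1 culture, each of A6, B8 and C4 is a single clone, and NANOG, OCT4, MED1 and MED12 have 1 library each, so none of these 4 has a replicate.

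The peak lists held 2387 peaks in A6, 2137 in B8, 631 in C4, 81 in EB3, 14815 for NANOG, 2532 for OCT4, 762 for MED1 and 1071 for MED12. The lists do not state their sequencing depth. A SIM2 site was a group of clone peaks with centres within 100 bp, found in at least 2 clones and without an EB3 peak, and there were 1229 of them, 346 in all 3 clones. A MED1 or a MED12 peak was counted as Mediator. The strength of a peak is given as its tag count normalized to library size (tags) and as its fold over the input. Tags of A6 and of B8 or C4 may be on different scales and were not compared as sizes.

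Pax, LIM homeobox, Gata, T-box, forkhead and bHLH factors bind DNA through family-specific domains and direct cells of the embryo into particular lineages, among them eye and forebrain, pituitary, blood, heart, endoderm, neural crest, neurons and muscle. In ES cells most such genes are silent or weakly transcribed and are held by Polycomb proteins at CpG-rich promoters. NANOG and OCT4 sustain the pluripotent state, and Mediator links enhancer-bound factors to RNA polymerase II. Foxd3 differs from most of the genes listed here in that it is also known to be required in the pluripotent epiblast and in ES cells, before its later role in the neural crest.

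Sequences are shown for the 3 SIM2 sites of the list and for 3 peaks of other factors, picked from those near Foxd3, Tbx20 and Pax3. Each is 201 bases of mm9, plus strand, centred on the site or peak. Capitals mark exact matches, on either strand, to 5 motifs, which were the octamer ATGCAAAT bound by OCT4, the SOX motif CATTGT, the midline element core ACGTG bound by SIM2 with its partner ARNT, the E-box CACGTG, which contains the midline element core, and the KLF motif CCACACCC. A sequence in lower case throughout holds none of these letters.
Pax6 SIM2 site, chr2:105517814-105518014: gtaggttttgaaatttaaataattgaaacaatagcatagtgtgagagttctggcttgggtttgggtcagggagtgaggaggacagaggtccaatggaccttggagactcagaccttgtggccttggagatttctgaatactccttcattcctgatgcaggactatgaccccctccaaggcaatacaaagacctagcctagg
Foxd3 upstream SIM2 site, chr4:99308936-99309136: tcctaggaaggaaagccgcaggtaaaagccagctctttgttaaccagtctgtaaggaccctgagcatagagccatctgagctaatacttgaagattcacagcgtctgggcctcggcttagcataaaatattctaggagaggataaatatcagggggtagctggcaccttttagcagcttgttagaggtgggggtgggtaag
Foxd3 downstream SIM2 site, chr4:99336946-99337146: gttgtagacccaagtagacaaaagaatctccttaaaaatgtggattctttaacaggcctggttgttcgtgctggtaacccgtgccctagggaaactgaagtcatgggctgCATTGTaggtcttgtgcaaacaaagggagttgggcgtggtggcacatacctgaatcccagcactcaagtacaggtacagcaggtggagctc
Foxd3 upstream NANOG peak, chr4:99308671-99308871: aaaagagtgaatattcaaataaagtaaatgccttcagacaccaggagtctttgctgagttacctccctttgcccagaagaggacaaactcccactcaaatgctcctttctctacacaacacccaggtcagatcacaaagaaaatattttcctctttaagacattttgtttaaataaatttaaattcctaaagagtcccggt
Tbx20 upstream OCT4 peak, chr9:24623084-24623284: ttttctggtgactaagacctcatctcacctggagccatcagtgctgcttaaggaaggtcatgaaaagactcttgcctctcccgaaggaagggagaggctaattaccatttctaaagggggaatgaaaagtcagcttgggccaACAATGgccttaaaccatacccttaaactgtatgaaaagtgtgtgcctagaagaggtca
Pax3 intronic OCT4 peak, chr1:78116554-78116754: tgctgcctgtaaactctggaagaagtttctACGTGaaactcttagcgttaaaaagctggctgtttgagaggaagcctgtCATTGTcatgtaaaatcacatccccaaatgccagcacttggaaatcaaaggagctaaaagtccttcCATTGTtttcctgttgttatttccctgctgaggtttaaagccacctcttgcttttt

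Of these 6 windows, 3 held the SOX motif, with 1 match at the downstream Foxd3 site, 1 at the Tbx20 peak and 2 at the Pax3 peak. The Pax3 peak also held the midline element core once, at a position where no SIM2 peak was called. None of the 3 SIM2 sites held the midline element core, which 14.1% of all 1229 SIM2 sites held in windows of the same length. The absence of a match says only that these letters are not in the window.

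Binding near the 50 lineage genes was mostly NANOG binding. NANOG peaks lay near 21 of them, OCT4 peaks near 4 (Pax3, Pax6, Tbx20 and Foxd3), SIM2 sites near 2 (Pax6 and Foxd3) and Mediator peaks near 2 (Tbx20 and Foxd3). Foxd3 was the single member with all of these factors. Every member with a peak of any factor had a NANOG peak, and 16 had NANOG alone. The 7 lists other than that of the EB3 control had no peak near 29 members. A peak of at least 1 of these 7 lists thus lay near 21 members (42%), against 52.5% of all genes. The share of all genes with NANOG alone was not counted.

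**Figure D1:**
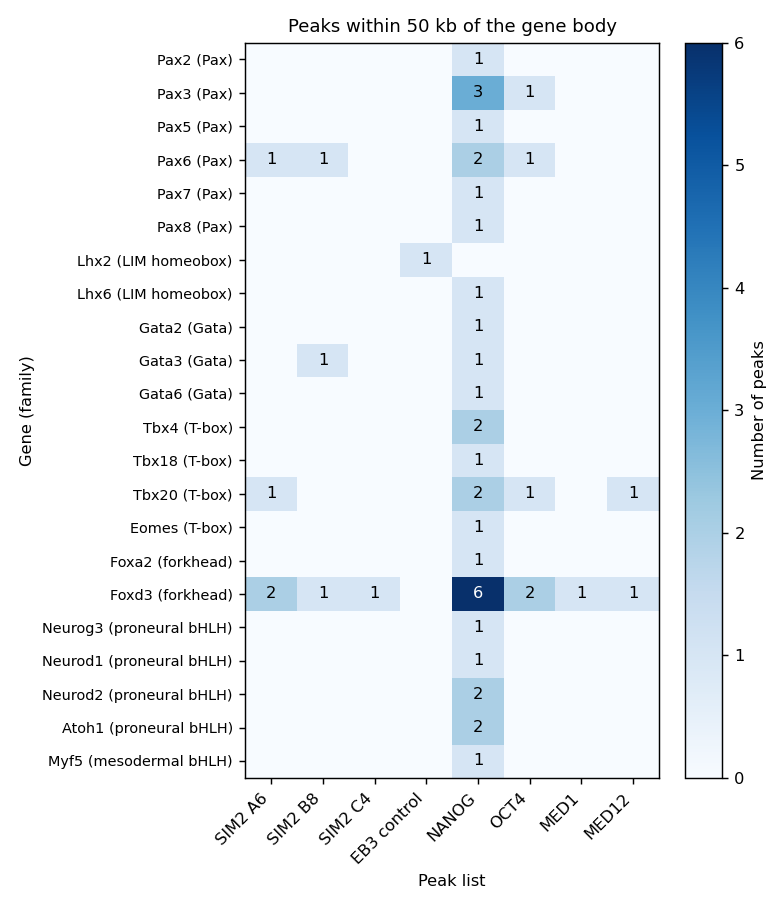
Number of peaks (colour and digit) of each of the 8 lists (columns) within 50 kb of the body of each lineage gene with at least 1 peak of any list (rows, family in brackets). The NANOG column is filled for 21 of the 22 genes shown, Foxd3 is the row with the most filled columns, and Lhx2 has a peak in the EB3 control alone.

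With windows of 50 kb, the share of lineage genes with a peak was lower than that of all protein-coding genes for each factor, by less than counting error. SIM2 sites lay near 4% of the members (2 of 50, 95% Wilson interval 1.10% to 13.5%) and near 8.37% of all genes. NANOG peaks lay near 42% (29.4% to 55.8%) against 49.4% of all genes. OCT4 peaks lay near 8% (3.16% to 18.8%) against 13.7%, and Mediator peaks near 4% (1.10% to 13.5%) against 8.68%. The background thus lay inside the interval of the members for each of the 4, and these intervals cover counting error only. When peaks were assigned to the gene with the nearest 5′ end, the NANOG share was above the background, with 36% of members against 26.3% of all genes. The shares of members for OCT4, SIM2 and Mediator stayed the same, and only the background fell. They were 8% against 6.51% for OCT4 and 4% against 3.72% for both SIM2 and Mediator, backgrounds inside the intervals given above. No interval was computed for the NANOG share by this assignment, so its difference was not set against counting error. With windows of 10 kb the NANOG share was also above that of all genes (28% against 25%).

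The individual lists gave the same order of magnitude. A6 peaks lay near 3 members (Pax6, Tbx20 and Foxd3) against a background of 14.7% of genes, B8 peaks near 3 (Pax6, Gata3 and Foxd3) against 12.5%, and C4 peaks near Foxd3 alone against 3.8%. MED1 had a peak near Foxd3 alone, against 4.78% of genes, and MED12 near Foxd3 and Tbx20, against 6.75%. The EB3 control had 1 peak, near Lhx2, against 0.626% of genes.

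**Figure D2:**
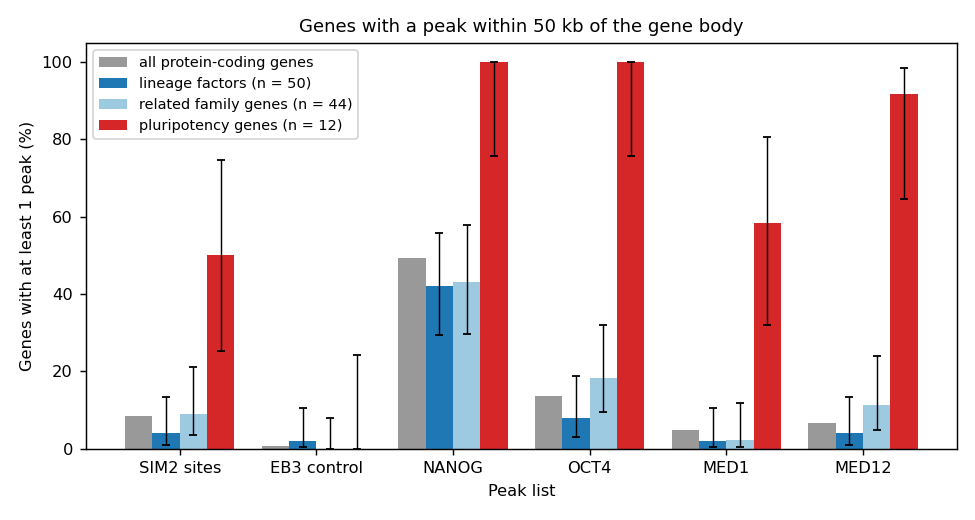
Share of genes (%) with at least 1 peak within 50 kb of the gene body, by peak list, for all protein-coding genes, the 50 lineage factors, 44 related family genes and 12 pluripotency genes, with 95% Wilson intervals. The lineage factors reach 42% for NANOG and at most 8% for the other lists, and the pluripotency genes reach 100% for NANOG and OCT4.

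Normalised to window length, the members gave the same picture. Their windows covered 6.29 Mb in all and held 33 NANOG peaks, 0.525 per 100 kb, compared with 0.682 per 100 kb over all genes. The ratio of these densities was 0.769, with an exact 95% Poisson interval of 0.530 to 1.08. The ratio was 0.726 for SIM2 sites (3 sites, interval 0.150 to 2.12), 0.680 for OCT4 (5 peaks, 0.221 to 1.59) and 0.363 for Mediator (2 peaks, 0.0440 to 1.31). All 4 ratios were below 1 and all 4 intervals included 1, so that a depletion was not detectable with these counts.

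Foxd3 held 6 of the 33 NANOG peaks and 2 of the 3 SIM2 sites. It also held 2 of the 5 OCT4 peaks and 1 of the 2 Mediator peaks. Without it, the other 49 genes held 27 NANOG peaks, and the NANOG ratio became 0.640 with an interval of 0.422 to 0.931, which no longer included 1. The ratios of the others became 0.246 for SIM2 (1 site), 0.415 for OCT4 (3 peaks) and 0.184 for Mediator (1 peak), with intervals that still included 1. Leaving out Foxd3 was chosen after its values were seen. Taking out the member with the highest NANOG density had to lower the ratio, while the background kept its densest genes. The NANOG interval below 1 therefore cannot show a depletion.

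**Figure D3:**
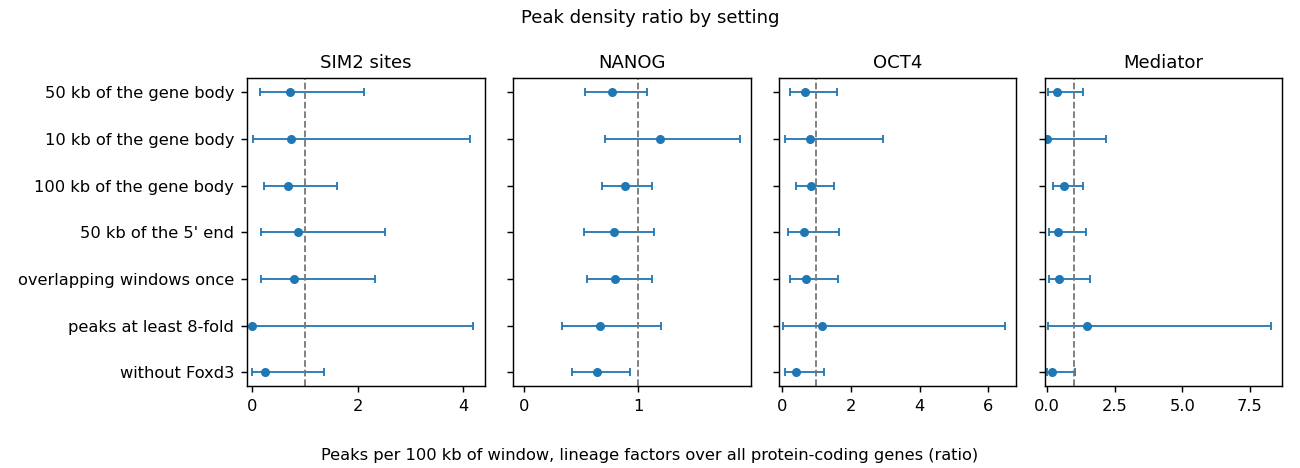
Ratio of the peak density per 100 kb of window, lineage factors over all protein-coding genes (points, with exact 95% Poisson intervals), for 4 factors and 7 settings of the window, the peak threshold or the members. Most points lie left of 1 (dashed line), and the NANOG interval without Foxd3 is the one that ends below 1. Foxd3 is the member with the highest NANOG density, so that leaving it out had to lower the ratio.

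Foxd3, on chr4:99322990-99325362 (plus strand), encodes a forkhead factor of the epiblast and the neural crest. Its window held no other protein-coding gene. It contained 2 SIM2 sites, 6 NANOG peaks, 2 OCT4 peaks, 1 MED1 peak and 1 MED12 peak, and no EB3 peak. Only 0.103% of all genes had a higher density of SIM2 sites, 0.183% a higher density of NANOG peaks, 0.425% of OCT4 peaks and 3.01% of Mediator peaks. Its window of 102 kb was shorter than the median of 115 kb over all genes, which raises a rank by density. The SIM2 rank rests on 2 sites. At least 6 NANOG peaks were found near 1.79% of all genes and near no other member.

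The strongest of these peaks lay about 14 kb upstream of the 5′ end of Foxd3, in intergenic DNA. NANOG was centred 14219 bp upstream there, with 23.2 tags and 33.2-fold over the input, and 2.64% of the 14815 NANOG peaks had more tags. OCT4 was centred 14289 bp upstream (9.8 tags, 9.61-fold), and 5.33% of OCT4 peaks had more tags. MED1 lay 14180 bp upstream (7.0 tags, 5.51-fold) and MED12 14208 bp upstream (10 tags, 9.03-fold). These 4 centres thus fell within 109 bp, in the NANOG window printed above, which holds neither the octamer nor the SOX motif.

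The upstream SIM2 site was centred 13954 bp from the 5′ end, beside this cluster and not on it. It was called in A6 (13.3 tags, 8.75-fold) and in C4 (5.1 tags, 5.43-fold), and not in B8. Its centre was 265 bp from the NANOG centre, 335 bp from OCT4, 226 bp from MED1 and 254 bp from MED12. With a limit of 100 bp between centres, SIM2 therefore shared no peak with these factors here. The study instead applied a 100 bp window to peak intervals. The A6 interval began at 99308961, and those of MED1 and MED12 ended at 99308917 and 99308890. Measured between intervals, MED1 and MED12 thus lay within 100 bp of the A6 peak, so the lack of sharing depends on the measure.

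The downstream SIM2 site lay 14056 bp beyond the 5′ end, in intergenic DNA past the end of the gene. It was called in A6 (11.6 tags, 7.62-fold) and B8 (2.7 tags, 4.68-fold), and not in C4. The B8 call was weak, as 93.1% of B8 peaks had more tags. A NANOG peak of 7.7 tags and 9.22-fold was centred 37 bp from it, and the nearest OCT4 and Mediator peaks were those of the upstream cluster. No SIM2 site near Foxd3, or near any other member, was found in all 3 clones, so the C4 clone called one of the Foxd3 sites and B8 the other.

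The remaining NANOG peaks of Foxd3 lay on both sides of the gene. A pair was found 20079 bp (22.5 tags, 25.8-fold) and 19428 bp (10.1 tags, 13.4-fold) upstream, with an OCT4 peak (3.5 tags, 4.55-fold) 20327 bp upstream. Another stood in the promoter, 673 bp upstream of the 5′ end, with 5.4 tags and 4.61-fold. This was the one NANOG peak of the whole list of members within 1 kb of a 5′ end. The last lay 19102 bp downstream (5.4 tags, 8.76-fold).

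**Figure D4:**
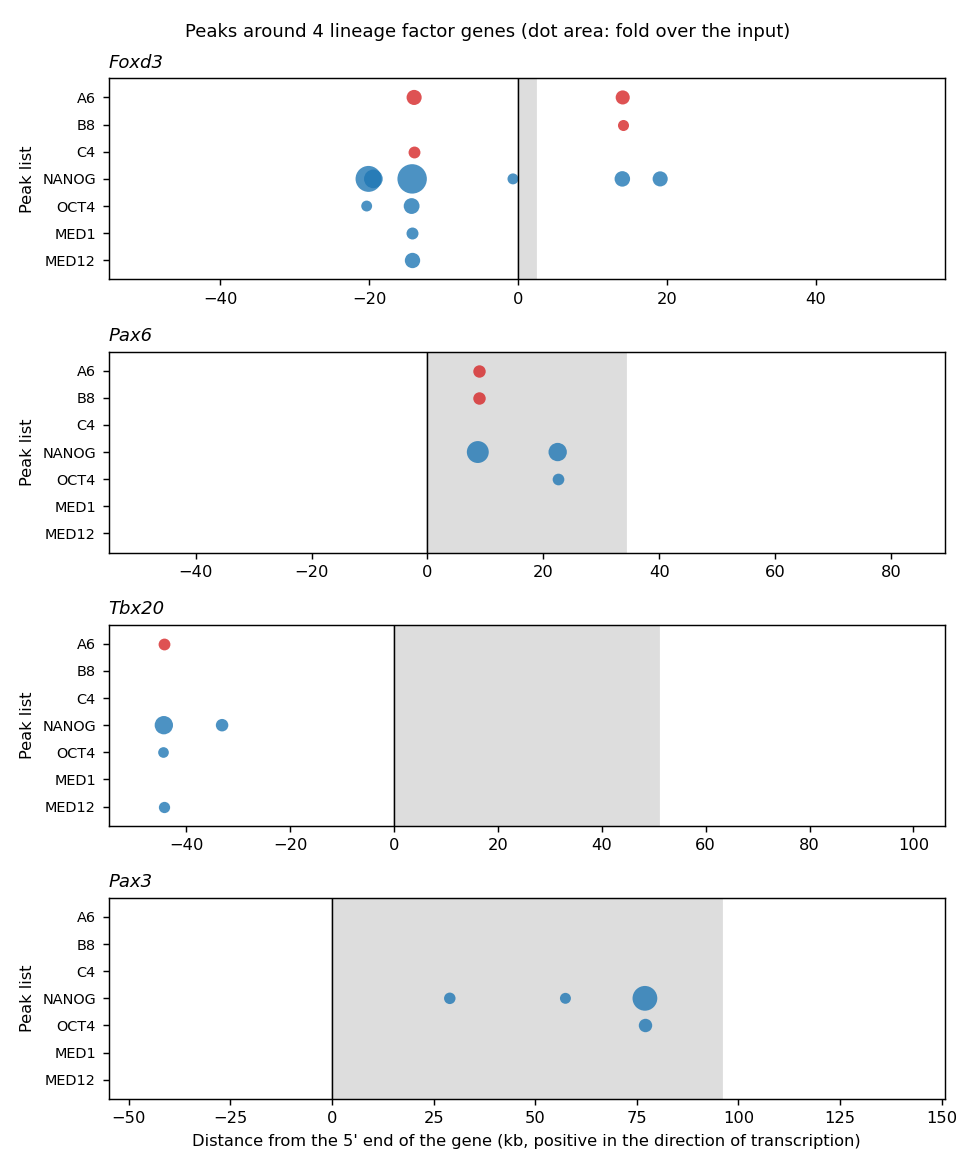
Peaks of the SIM2 clones (red) and of NANOG, OCT4, MED1 and MED12 in clone A6 (blue) around Foxd3, Pax6, Tbx20 and Pax3, by distance from the 5′ end of the gene (kb, positive in the direction of transcription), with the gene body in grey and the dot area proportional to the fold over the input. At Foxd3 the NANOG, OCT4, MED1 and MED12 dots stand in 1 column 14 kb upstream, and at Tbx20 NANOG, OCT4 and MED12 stand in 1 column 44 kb upstream.

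Among the Pax genes, paired-box factors of eye, kidney, muscle, thyroid and B-cell development, 6 of 8 had a NANOG peak, with 9 peaks in all. This was 75% (interval 40.93% to 92.85%), against 49.4% of all genes. Their NANOG density was 0.945 times that of all genes (interval 0.432 to 1.79). In 8 cases the peak lay in an intron and in 1 case in an exon of the Pax gene itself, and none was in a promoter. No Pax gene had a Mediator peak, where their window length and the density over all genes gave an expected number of 1.22. Pax1 and Pax9, which act in the vertebral column and the pharyngeal pouches, had no peak.

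Pax6, the regulator of eye, forebrain and pancreatic islet development (chr2:105509053-105543317, plus strand), had a SIM2 site in an intron, 8861 bp from its 5′ end. It was called in A6 (9.0 tags, 5.93-fold) and B8 (5.4 tags, 5.96-fold), and not in C4. A NANOG peak of 17.0 tags and 18.4-fold was centred 182 bp from it. Another NANOG peak (6.2 tags, 12.9-fold) lay in an exon 22456 bp from the 5′ end, and an OCT4 peak (5.4 tags, 5.23-fold) was centred 9 bp from that one. By the 100 bp criterion between centres OCT4 thus shared a NANOG peak of Pax6, and the SIM2 site lay beside the other without sharing it. The interval of that other NANOG peak ended at 105517815, and those of B8 and A6 began at 105517819 and 105517852. Measured between intervals, both clone peaks thus lay within 100 bp of the NANOG peak, so the lack of sharing here also depends on the measure. The SIM2 density of Pax6, 0.745 per 100 kb, was exceeded by 5.16% of all genes, its OCT4 density by 8.60% and its NANOG density by 17.1%. Its window also reached Elp4, the neighbouring gene.

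Pax3, which acts in the neural crest and in muscle progenitors (chr1:78097842-78193709, minus strand), had 3 NANOG peaks, all in its introns. The one 77001 bp from the 5′ end was the strongest (16.3 tags, 23.5-fold), and an OCT4 peak of 7.3 tags and 6.91-fold was centred 54 bp from it. The others, 57437 bp and 28978 bp from the 5′ end, had 3.9 and 4.6 tags, below the median of 6.2 tags over all NANOG peaks. No other protein-coding gene reached into this window.

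The other Pax genes had single intronic NANOG peaks. Pax8, a thyroid and kidney factor, had 11.6 tags (14.3-fold) at a point 33542 bp from its 5′ end. Pax2, a kidney and midbrain-hindbrain factor, had 5.4 tags (5.07-fold). Pax7, a factor of muscle satellite cells, had 5.4 tags (4.61-fold), and Pax5, which maintains B-cell identity, had 4.6 tags (5.07-fold) at a point 162269 bp from its 5′ end. Except at Pax8, these peaks had fewer tags than the median NANOG peak.

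The LIM homeobox genes, which pattern forebrain, pituitary, motor neurons and gonad, had the lowest NANOG density of the 7 families. A single peak was found over 8 genes, where their window length and the density over all genes gave an expected number of 6.60. The ratio was 0.152, with an interval of 0.00384 to 0.845. The peak (7.7 tags, 8.76-fold) lay in an intron of Lhx6, a factor of cortical interneurons. Families were among several groups looked at, and no value over the families was corrected for that. Lhx1, Lhx3, Lhx4, Lhx5, Lhx8 and Lhx9 had no peak in any list, and Lhx3 and Lhx8 gained a NANOG peak when the window was widened to 100 kb.

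Lhx2, a factor of eye and cortex, carried the one peak of the EB3 control found near a member. It lay 78863 bp from the 5′ end, in intergenic DNA 48.4 kb past the end of the gene, with 11.2 tags and 7.08-fold. No clone peak lay near Lhx2, so this control peak touched no SIM2 site.

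The Gata genes, zinc-finger factors of blood, heart and endoderm, had 3 NANOG peaks over 5 genes, a ratio of 0.665 (interval 0.137 to 1.94). They had no SIM2 site, OCT4 or Mediator peak. The numbers expected from their window length were below 1, at 0.435, 0.774 and 0.580. Gata2, a factor of blood progenitors, had a peak of 3.9 tags (4.61-fold) that was nearer to the 5′ end of Dnajb8. Gata3, a T-cell factor, had a NANOG peak 34087 bp from its 5′ end. A SIM2 peak of clone B8 alone (4.1 tags, 4.68-fold) lay in a Gata3 exon, 1778 bp from the 5′ end of 4930412O13Rik. Gata6, a factor of primitive endoderm, had a peak 46176 bp upstream (6.2 tags, 7.38-fold). Gata4 and Gata5, factors of heart and endoderm, had none.

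Of the 9 T-box genes, which act in mesoderm, heart and limbs, 4 had NANOG peaks (44.4%, against 49.4% of all genes). These were 6 peaks in all, a ratio of 0.732 (interval 0.269 to 1.59). Tbx20, a heart factor (chr9:24527648-24578746, minus strand), was the second member with Mediator. About 44 kb upstream, in intergenic DNA, it had a NANOG peak (13.2 tags, 12.9-fold), an OCT4 peak (3.2 tags, 4.38-fold) and a MED12 peak (4.7 tags, 4.88-fold), with no MED1 peak. More tags were held by 12.8% of NANOG peaks, 95.1% of OCT4 peaks and 73.7% of MED12 peaks, so the OCT4 and MED12 peaks were weak. A SIM2 peak of A6 (9.0 tags, 5.36-fold) was centred 5 bp from the NANOG peak. As B8 and C4 had no peak there, it was not counted as a SIM2 site. The window also held Dpy19l2, and the nearest 5′ end to these peaks was that of Tbx20.

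The other T-box genes with peaks had NANOG alone. Tbx4, a hindlimb factor, had peaks 14102 bp (4.6 tags) and 32815 bp (7.0 tags) from its 5′ end. Tbx18, an epicardial factor, had 1 peak 24468 bp upstream (3.9 tags). Eomes, a factor of trophoblast, endoderm and mesoderm, had 1 peak in an intron 2884 bp from its 5′ end (3.9 tags, 4.61-fold). Tbx1, Tbx2, Tbx5, Tbx6 and Tbx15 had none, and the nearest NANOG peak of Tbx15 was 1216 kb away, the farthest of all members.

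In the forkhead family, Foxd3 held 6 of the 7 NANOG peaks and all of the SIM2 sites, OCT4 peaks and Mediator peaks. The seventh NANOG peak lay 17581 bp from the 5′ end of Foxa2, an endoderm and floor plate factor, with 3.1 tags and 4.61-fold. Foxa1 (endoderm), Foxc1 and Foxc2 (paraxial mesoderm and vessels), Foxf1 (lateral plate mesoderm) and Foxh1 (the partner of SMADs in NODAL signalling) had no peak. The family ratio of 1.42 for NANOG (interval 0.571 to 2.92) therefore rested on Foxd3.

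The proneural bHLH genes, which commit progenitors to neuronal and some endocrine fates, had 6 NANOG peaks over 4 of 7 genes (57.1%, against 49.4% of all genes). The ratio was 1.22 (interval 0.448 to 2.66). No SIM2 site, OCT4 or Mediator peak was found, where 0.473, 0.842 and 0.631 were expected from their window length. The NANOG peaks were weak. Atoh1, a factor of cerebellar granule cells and hair cells, had 2 peaks of 3.1 tags, and Neurod2, a factor of cortical neurons, had peaks of 5.4 and 2.3 tags. Neurog3, which specifies endocrine cells of the pancreas, had a peak of 3.9 tags 2871 bp from its 5′ end, and Neurod1, which acts in the same lineage, had one of 2.3 tags in an intron of its neighbour Cerkl. All 6 had fewer tags than the median NANOG peak. Neurog1, Neurog2 and Neurod6 had none.

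The mesodermal bHLH genes gave 1 NANOG peak over 6 genes, a ratio of 0.238 (interval 0.00601 to 1.32). It was assigned to Myf5, a muscle factor, but lay in an intron of Ptprq and nearer to the 5′ end of Myf6 (4.6 tags, 6.91-fold). Myod1 (muscle), Twist1 (mesenchyme), Hand1 (trophoblast and heart), Hand2 (heart and limb) and Mesp1 (cardiac mesoderm) had no peak.

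Ranked by NANOG density, Foxd3 came first with 5.86 peaks per 100 kb, followed by Atoh1 (1.96), Neurod2 (1.92), Tbx4 (1.54), Pax3 (1.53), Pax6 (1.49), Tbx20 (1.32), Neurog3 (0.984), Myf5 (0.969) and Foxa2 (0.961). From Atoh1 to Foxa2 these densities rest on 1 to 3 peaks each, so their order is not resolved by counting.

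The 33 NANOG peaks near members were compared with all 14815. Their median was 5.4 tags (interquartile range 3.9 to 7.7) and 5.99-fold, against 6.2 tags (4.6 to 9.3) and 6.91-fold over the list. At least 8-fold over the input was reached by 11 of the 33 (33.3%, interval 19.8% to 50.4%), against 38.6% of all NANOG peaks. Without Foxd3, 6 of 27 reached it (22.2%, 10.6% to 40.8%), and the median fell to 4.6 tags. Measured between centres, an OCT4 peak lay within 100 bp of 4 of the 33 (12.1%, against 15.1% over the list). By the same measure a Mediator peak lay within 100 bp of 2 (6.06%, against 5.60%) and a SIM2 site within 100 bp of 1 (3.03%, against 5.93%). Without Foxd3 these became 3 of 27 for OCT4 (11.1%, interval 3.85% to 28.1%), 1 of 27 for Mediator (3.70%, 0.657% to 18.3%) and 0 of 27 for SIM2 (upper bound 12.5%). The shares over the list lay inside these intervals with and without Foxd3.

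Most of these 33 peaks were distal. The centre was intergenic in 17 cases (51.5%, against 57.8% of all NANOG peaks), intronic in 14 (42.4%, against 38.0%), exonic in 1 and in a promoter in 1. The nearest 5′ end of a protein-coding gene was that of the member for 30 of the 33, and 5 of the 33 lay within 10 kb of it, 1 each for 5 genes. The promoters of the members differed widely in CpG content. The ratio of observed to expected CpG in the 1 kb around the 5′ end had a median of 0.634 over the members and 0.549 over all genes, with a range of 0.121 to 0.993 over the members. It was at least 0.6 in 30 of the 50 members (60%, interval 46.2% to 72.4%) and in 45.6% of all genes. It was similar in the 21 members with a NANOG peak (median 0.628) and in the 29 without (0.655).

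Motif matches near members were few. The SOX motif was found in 9 of the 33 NANOG windows (27.3%, interval 15.1% to 44.2%), against 21.8% of all NANOG windows. The octamer was found in none of the 33, against 6.97%, and in none of the 5 OCT4 windows, against 11.2%. The KLF motif was found in 2 of the 33 (against 3.75%), the midline element core in 1 (against 5.42%) and the E-box in none (against 1.27%). The intervals of the members included the background for each motif.

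**Figure D5:**
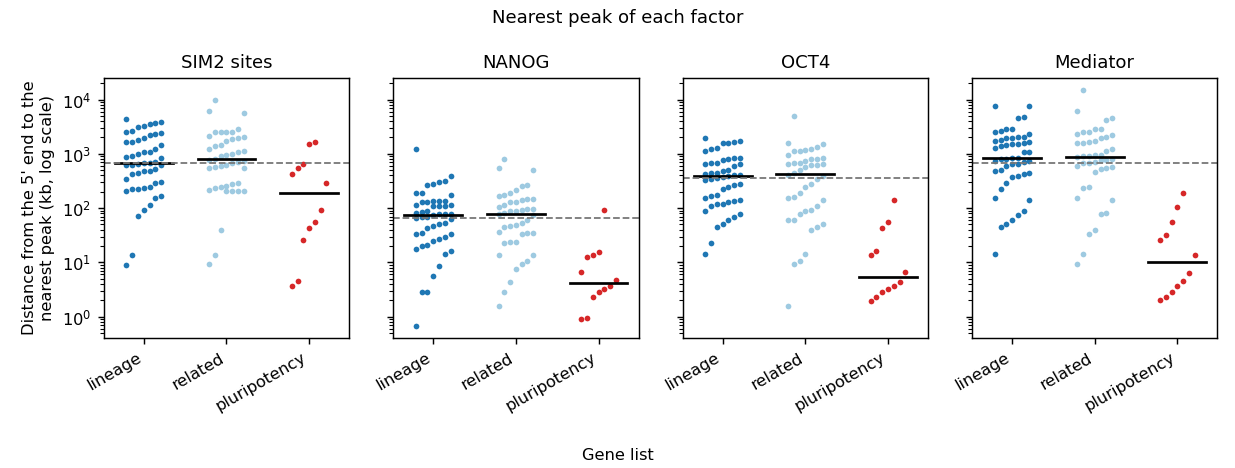
Distance from the 5′ end to the nearest SIM2 site or peak of NANOG, OCT4 and Mediator (kb, log scale), 1 point per gene, for the lineage factors, the related family genes and the pluripotency genes, with the median of each list (bar) and of all protein-coding genes (dashed line). The lineage medians stand at or above the dashed line, and the pluripotency points lie mostly below it.

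Distance to the nearest peak, which needs no window, gave the same order. From the 5′ ends of the members, the median distance was 75.7 kb to the nearest NANOG peak, 384 kb to OCT4, 676 kb to a SIM2 site and 827 kb to Mediator. Over all genes the medians were 66.2 kb, 359 kb, 670 kb and 676 kb. For 12 pluripotency genes (Nanog, Pou5f1, Sox2, Klf2, Klf4, Klf5, Esrrb, Nr5a2, Tfcp2l1, Prdm14, Sall4 and Zfp42), used as a check of the lists, they were 4.21 kb, 5.47 kb, 190 kb and 10.1 kb. All 12 had NANOG and OCT4 peaks in their windows, 11 had Mediator and 6 had SIM2 sites, so the lists did hold peaks at the loci known for these factors. Peaks of all 4 factors were found near 6 of these 12, 1 of the 50 members and 2.86% of all genes.

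Genes of the same families that were not in the list were also counted (44 of 45 listed were found). NANOG peaks lay near 19 of them (43.2%, against 49.4% of all genes) and OCT4 peaks near 8 (18.2%, against 13.7%). Mediator peaks lay near 5 (11.4%, against 8.68%) and SIM2 sites near 4 (9.09%, against 8.37%). The share over all genes lay inside the Wilson interval of these genes for each factor. The genes with a SIM2 site were Tbx3, Mga, Foxo1 and Foxp1, and the window of Foxp1 was 441 kb long. All 4 factors were found at each of those 4 genes. The NANOG ratio of the 44 genes was 0.939 (interval 0.668 to 1.28), and their ratio for SIM2 sites was 1.00 (0.272 to 2.56). The difference between the 44 genes and the members was not tested.

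The 50 kb limit decided several assignments. Of the members ordered by their nearest peak, the last inside it was Gata6 for NANOG (46.2 kb from the gene body) and Tbx20 for OCT4 (44.4 kb) and Mediator (44.3 kb). The first outside was Lhx8, a factor of cholinergic neurons, with a NANOG, an OCT4 and a Mediator peak between 51.1 and 51.3 kb from its body. Eomes had an OCT4 peak at 51.8 kb, a Mediator peak at 51.7 kb and a SIM2 site at 71.9 kb from its body. Within 100 kb, 4 members had a SIM2 site (Lhx3 and Eomes were added), 31 a NANOG peak, 8 an OCT4 peak and 6 a Mediator peak, against 13.4%, 67.7%, 21.8% and 14% of all genes. The members named for SIM2, OCT4 and Mediator therefore depended on the limit, and the shares of SIM2, NANOG, OCT4 and Mediator were all below that of all genes at 50 kb and at 100 kb.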

How the data were processed

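Peak lists from anti-FLAG ChIP-seq of 3 SIM2 clones and the EB3 control, and from ChIP-seq of MED1, MED12, OCT4 and NANOG in clone A6, were analysed, and the input libraries were not analysed on their own. Reads had been aligned to mm9 by the authors with BWA and freed of duplicates, and HOMER had then called the peaks of each ChIP over the matching input. Versions of both tools are not given in the sources used here. Each deposited peak carries a tag count scaled to library size, a signal. The fold over the input is a ratio that the authors' HOMER run computed. The other columns of the lists, including the scores and the p-values, were not used, nor were SOX2 ChIP or the ChIP of other factors in EB3 cells.

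The members and gene lists were chosen with earlier results of these data known. Genes were matched to GENCODE vM1 by symbol, and 1 member (Foxf1) by an older symbol of RefSeq. A gene was called bound where at least 1 peak centre lay within 50 kb of its body. For SIM2 sites, peak centres of the clones within 100 bp were merged, and a site had to be present in 2 or more clones and more than 100 bp from any EB3 centre. Shares carry Wilson intervals and density ratios exact Poisson intervals at 95%, which cover counting error only. No test over genes was made. The members named were those with a SIM2 site, an OCT4 or a Mediator peak, the 10 with the highest NANOG density and those without a peak, and the others with NANOG, B8 or EB3 peaks were named in addition, after their values were seen. Promoters ran from 1000 bp upstream to 300 bp downstream of a 5′ end. Motifs were searched as exact letters in 201 bp windows.

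Alternatives were windows of 10 and 100 kb, windows around the 5′ end, a fold of at least 8, overlapping windows counted once, other merging distances, other numbers of clones, no EB3 filter and each clone left out. Leaving out Foxd3 and assigning peaks to the nearest 5′ end were chosen after seeing the data. The tools were bedtools 2.31.1 and Python 3.11.15 with scipy 1.17.1, numpy 2.4.6, matplotlib 3.10.9 and pandas 2.3.3. On simulated data, the counts of 22350 of 22350 windows equalled those of bedtools, 200 of 200 genes with planted peaks were recovered, and 900 of 900 planted sites were assigned to the right number of clones.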

Additional observations from a re-analysis of the deposited data

How the results depend on the processing

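Of 32 density ratios recomputed under other settings, 29 were below 1 and 3 above it, and the interval included 1 in 31. The exception was NANOG without Foxd3, the member with the highest NANOG density, whose removal had to lower the ratio. Members with a SIM2 site numbered 1 with windows of 10 kb (2%, against 3.5% of all genes) and 4 with 100 kb (8%, against 13.4%). They numbered 0 with peaks of at least 8-fold (against 1.96%) and 0 with sites in all 3 clones (against 2.65%). With sites in at least 1 clone there were 4 (8%, against 18.5%), and without Foxd3 there was 1 (against 8.37%). Leaving out a clone gave 0 to 2 members and a density ratio of 0 to 0.765. The count was 0 without A6 (against 2.72% of all genes), since each of the 3 sites near members includes an A6 peak. It was 1 without B8 (2%, against 2.95%) and 2 without C4 (4%, against 7.99%). The SIM2 ratio was 0 at 8-fold and 0 with sites in all 3 clones. Members with NANOG numbered 6 at 8-fold, or 12% against 25.9% of all genes, a wider gap than with all NANOG peaks. No interval was computed for that share, so the gap was not set against counting error. The density ratio of NANOG at 8-fold, a different measure, was 0.668 (0.334 to 1.2). The NANOG ratio rose to 1.19 (0.708 to 1.89) with windows of 10 kb. Members with OCT4 numbered 2 at 10 kb (4%, against 5.97%), 8 at 100 kb (16%, against 21.8%) and 1 at 8-fold (2%, against 1.91%). Members with Mediator numbered 0 at 10 kb (against 3.71%), 6 at 100 kb (12%, against 14%) and 1 at 8-fold (2%, against 1.28%). Without Foxd3 there was 1 (against 8.68%). The Mediator ratio was 0 at 10 kb and 1.49 (0.0377 to 8.30) at 8-fold. The fewer peaks at 8-fold and the shorter or longer windows change these counts by construction.

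With peaks assigned to the nearest 5′ end, 18 members (36%) had a NANOG peak, against 26.3% of all genes, 2 (4%) a SIM2 site, against 3.72%, 4 (8%) an OCT4 peak, against 6.51%, and 2 (4%) a Mediator peak, against 3.72%. By this assignment the shares of all 4 factors are thus above those of all genes. For SIM2, OCT4 and Mediator the difference is less than counting error. For NANOG no interval was computed, so its difference was not set against counting error. For SIM2, OCT4 and Mediator the members counted are as many as in windows of 50 kb, and the background changed. In windows of 50 kb and 100 kb all 4 shares are below, and in windows of 10 kb that of NANOG is above (28% against 25%). The windows of members hold fewer other genes (median 1) than those of all genes (median 2), and the part of this in the change was not tested. No paired analysis was possible because the replicate numbers belong to the SIM2 clones alone and no test between groups was made. Depth is not given in the lists, so weak binding below the peak threshold is not measured, and NANOG, OCT4, MED1 and MED12 have no replicate.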
